A study of Mus musculus with 6 samples.

Results

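The cytosolic ribosomal protein genes were examined in Ly6D- common lymphoid progenitors (CLPs), early bone marrow cells that can still form B, T and natural killer cells. The members were taken by symbol: names made of Rpl or Rps and a number, with or without a following a, x, y or l, and in addition Rplp0, Rplp1, Rplp2 and Rpsa, leaving out pseudogenes with a -ps suffix and the S6 kinases. This gave 67 of the 22180 genes that had a probe set of their own, 42 of the large and 25 of the small ribosomal subunit. Another 12 genes of this family, among them Rpl10, Rpl13a and Rps2, were listed solely on probe sets shared with other genes or with pseudogenes, so no value is given under their names. Of the 67 members, 59 were bright enough to be tested and 8 were not.

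Both groups were adult mice of 6 to 8 weeks that carried 1 allele of iDTR, the Cre-dependent diphtheria toxin receptor, and both received toxin daily for 4 weeks. Mutants were OcnCre+;iDTR+/-, so that Cre driven by the osteocalcin promoter opened the receptor gene in bone-forming cells and toxin removed those cells. Controls were OcnCre-;iDTR+/- and kept them. Each group had 3 samples, with 1 Affymetrix array per sample, and the comparison asks how loss of osteocalcin-expressing cells bears on the transcripts of the progenitors. The labels do not say whether a sample was a mouse or a pool, so a p-value covers the spread among these arrays alone, which may be technical. Because bulk RNA was measured, fewer cells of a type and less RNA per cell cannot be told apart.

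A ribosome is built from a large subunit, which forms peptide bonds, and a small subunit, which reads the mRNA. The genes of its proteins are among the most strongly expressed in dividing cells. Their mRNAs typically begin with a C followed by a run of pyrimidines, the terminal oligopyrimidine (TOP) element, through which mTOR signalling and the RNA-binding protein LARP1 adjust their translation and stability. Faults in single ribosomal proteins are known to harm blood formation in particular, as in Diamond-Blackfan anaemia.

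The sequence around the annotated start of transcription was read for 52 members from RefSeq promoter sequences of build GRCm38.p6, and 30 bases are shown for 10 of them, 15 before the start and 15 from it. For a gene with several annotated starts, a pyrimidine start was preferred, and features were counted over all its starts. Capitals mark a C at the start together with the pyrimidines that follow it without a break, where at least 4 follow. The first 5 are named members that have such a start. Rps27 and Rps27l are a gene and its paralogue that differ in it. The last 3 are members that were low on mutant arrays and lack it. Rps27l and Rpl34 lack it at the annotated base, but have a C followed by 4 pyrimidines that begins within 10 bases of it.
Rpl15: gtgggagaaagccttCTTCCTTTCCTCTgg
Rps6: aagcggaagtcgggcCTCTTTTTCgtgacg
Rps10: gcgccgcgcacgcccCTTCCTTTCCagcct
Rps18: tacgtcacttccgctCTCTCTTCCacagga
Rplp2: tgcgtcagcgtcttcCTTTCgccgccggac
Rps27: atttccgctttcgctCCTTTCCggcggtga
Rps27l: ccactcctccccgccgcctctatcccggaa
Rpl34: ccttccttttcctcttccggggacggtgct
Rps19: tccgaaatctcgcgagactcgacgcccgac
Rps4x: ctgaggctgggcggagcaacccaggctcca
On the minus strand these windows lie at chr14:18270972-18271001 for Rpl15, chr4:86857353-86857382 for Rps6, chr17:27635230-27635259 for Rps10, chr17:33955651-33955680 for Rps18, chr3:90213634-90213663 for Rps27, chr3:130730323-130730352 for Rpl34 and chrX:102189377-102189406 for Rps4x. On the plus strand they lie at chr7:141447636-141447665 for Rplp2, chr9:66946071-66946100 for Rps27l and chr7:24884577-24884606 for Rps19. Each spans the last bases before the gene and the first bases of its first exon.

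A start of this kind was found in 11 of the 52 members (21.2%), against 3.01% of 27025 genes with a promoter sequence. A C followed by 4 pyrimidines that began within 10 bases of the annotated start was found in 31 members (59.6%), against 34.4% of all genes. The ETS-family core CGGAAGT, searched on both strands over the 300 bases, was present in 16 members (30.8%) and in 7.20% of all genes. The YY1 motif AAGATGGC, searched the same way and counted separately, was present in 3 members (5.77%) and in 3.19% of all genes. These are matches of letters at annotated starts, which need not be the start used in these cells.

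The arrays stood apart from each other before any gene was tested. Over all probe sets, the correlation of mutant replicate 2 with any other array was 0.936 to 0.954, and that among the other arrays was 0.973 to 0.989. Its values were also compressed: the 90th percentile was 7.58 on mutant replicate 2 and 7.69 on mutant replicate 3, against 7.83 to 7.87 on the remaining 4 arrays. Ribosomal protein genes are bright, and 37 of the 59 tested members belonged to the brightest 10% of tested genes. The counts over the members are therefore set beside the 1294 other genes of that brightest 10%.

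At an adjusted p of 0.05 no ribosomal protein gene was called in either direction, although most were lower on average in mutants. The large set of lower values came from mutant replicates 2 and 3, while mutant replicate 1 mostly lay at or above the controls. Of the 59 tested members 51 (86.4%) were lower and 8 were higher, with a median log2 difference of −0.21. The same share was 57.5% over all 13308 tested genes, with a median of −0.04, and 85.8% over the other genes of the brightest 10%, with a median of −0.21. The share of all 59 members was thus near that of the other bright genes, but not all members were that bright. Of the 37 members inside the brightest 10%, 35 (94.6%) were lower, with a median of −0.26. Of the 22 outside it 16 (72.7%) were lower, with a median of −0.13. In limma 0 members passed after Benjamini-Hochberg adjustment over all tested genes, where 0% of genes passed. At an unadjusted p under 0.05 there were 5 lower members (8.47%) and 0 higher ones, against 6.02% of all tested genes lower and 2.01% higher. Of the other bright genes 131 (10.1%) were lower at that p, a larger share than that of the members.

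Array by array, each member was set against its mean over the controls and the median was taken. On the log2 scale this median was −0.03, −0.01 and 0.04 on control arrays 1, 2 and 3. It was 0.08, −0.50 and −0.16 in mutant replicates 1, 2 and 3. The other genes of the brightest 10% stood at −0.00, −0.42 and −0.18 on the mutant arrays, and all tested genes at 0.01, −0.07 and −0.05. The mutant arrays thus did not shift together.

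**Figure D1:**
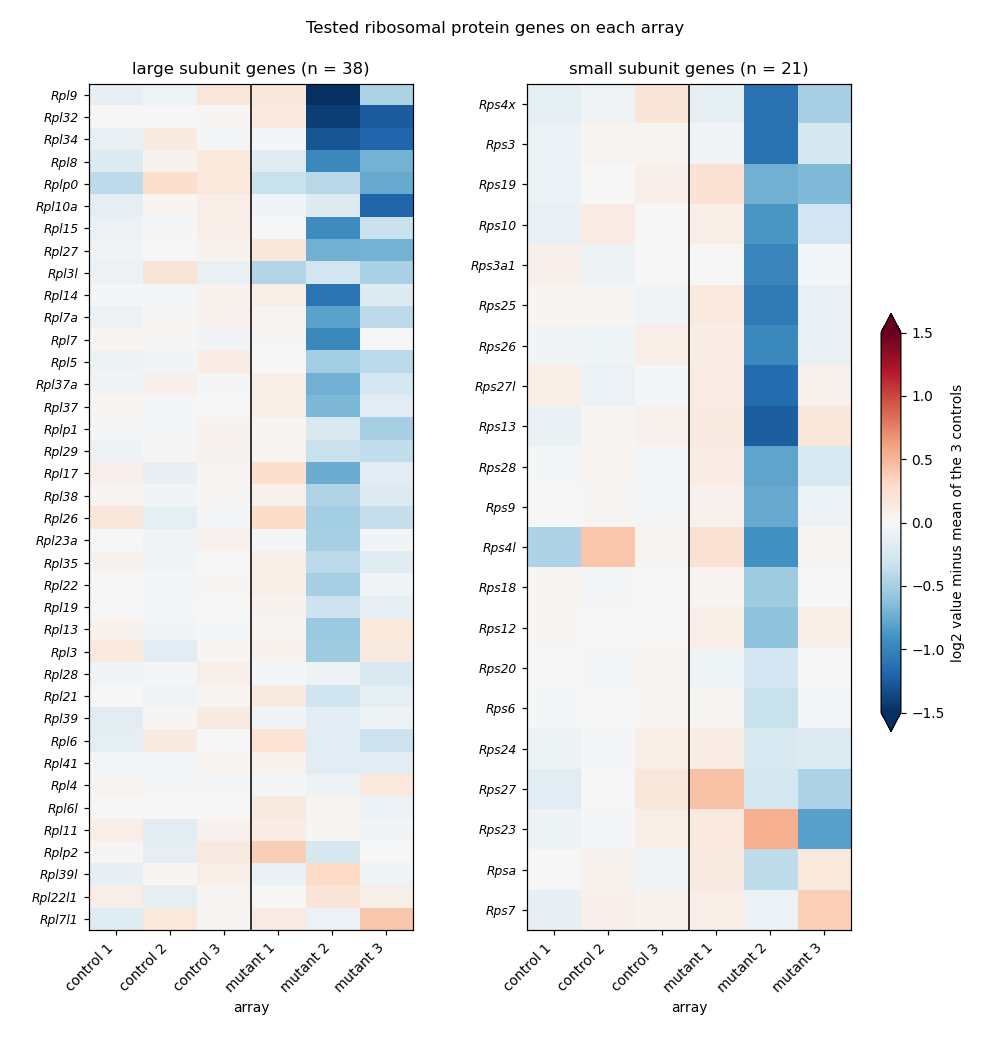
Log2 value minus the mean of the 3 controls (colour) for the 38 large subunit and 21 small subunit genes tested (rows, ordered by their mean difference) on the 6 arrays (columns). The column of mutant replicate 2 is blue in most rows, that of mutant replicate 3 is blue mainly in the upper rows, and that of mutant replicate 1 is pale or slightly red in most rows, with Rpl3l and Rplp0 among the exceptions.

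On mutant replicate 2, 51 members (86.4%) lay below every control, where 45% of all tested genes and 77.0% of the other bright genes did. On mutant replicate 3, 38 members (64.4%) lay below every control, where 40.5% of all tested genes and 64.1% of the other bright genes did. Of the 37 members inside the brightest 10%, 36 (97.3%) lay below every control on mutant replicate 2 and 26 (70.3%) on mutant replicate 3. On mutant replicate 1 only 2 members (3.39%) lay below every control, where 23.8% of all tested genes and 25.9% of the other bright genes did. Instead 31 members (52.5%) lay above every control on that array, where 28.6% of all tested genes and 30.4% of the other bright genes did. As a result the groups did not overlap for just 1 member, Rpl3l, which was lower in mutants (1.69% of members, against 9.99% of all tested genes and 17.2% of the other bright genes). No member was higher without overlap, against 5.4% of all tested genes.

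The controls were close together and the mutants were not. The median SD of a member was 0.08 over the 3 controls and 0.38 over the 3 mutants, and the mutant SD was the larger of the pair in 54 of 59 members (91.5%). Over all tested genes the median SDs were 0.12 and 0.20, and the mutant SD was larger in 72.4%. Over the other bright genes they were 0.10 and 0.29, and it was larger in 85.9%. The median half-width of a member's 95% confidence interval in limma was 0.45, so that 3 arrays per group could not separate a difference the size of the members' median from 0.

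Leaving out single arrays showed how far the shift rested on each. Without mutant replicate 2 the median of the members was −0.04, with 39 of 59 lower, and that of the other bright genes was −0.10. Without mutant replicate 1 it was −0.36, with 54 lower, against −0.31 for the other bright genes. In that setting 36 members (61.0%) were lower without overlapping the controls. The same held for 27.6% of all tested genes and 51.5% of the other bright genes. There 25 of the 59 members had an unadjusted p under 0.05, against 22.0% of all tested genes, and Rpl32 passed (limma adjusted p = 0.0374). Array weights put a weight of 5.20 on mutant replicate 3 and 0.214 on mutant replicate 2. They called 17 of the 59 members and 2960 of all 13308 tested genes. The called members were not all lower, as Rpl7l1 (0.34) and Rps7 (0.30) were called as higher.

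Both subunits had the pattern. The mutant mean was the lower for 31 of 38 large subunit genes (81.6%; median −0.19) and for 20 of 21 small subunit genes (95.2%; median −0.26). On mutant replicates 1, 2 and 3 the large subunit stood at 0.05, −0.44 and −0.18, and the small subunit at 0.11, −0.76 and −0.09. On mutant replicate 3, 27 of the large subunit genes (71.1%) lay below every control, and 11 of the small subunit genes (52.4%). The order of the subunits thus turned between these arrays: the small subunit was the lower on mutant replicate 2 and the large subunit on mutant replicate 3. Without mutant replicate 2 the median was −0.05 for the large and −0.01 for the small subunit, and without mutant replicate 3 it was −0.19 and −0.34. The difference between the subunits was not tested.

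**Figure D2:**
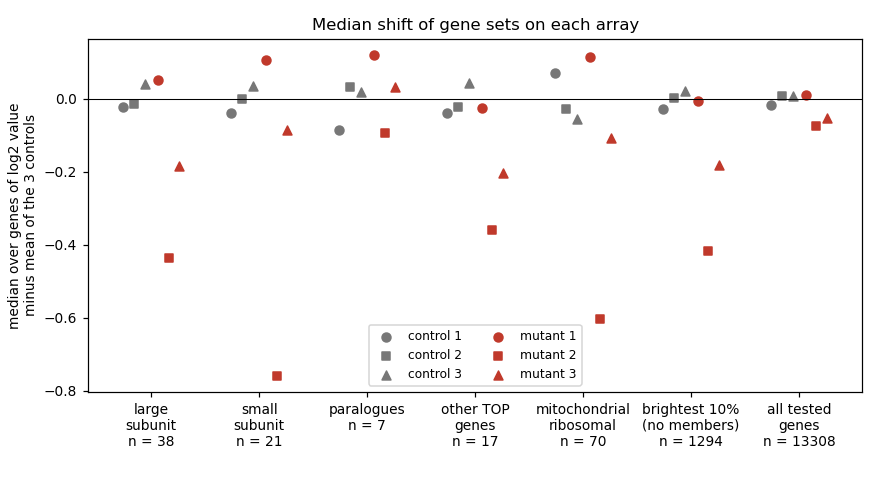
Median over the genes of a set of the log2 value minus the mean of the 3 controls (vertical axis), for 7 gene sets (horizontal axis, with the number of tested genes) on each array (grey, controls; red, mutants; circle, square and triangle, replicates 1, 2 and 3). The square of mutant replicate 2 is the lowest in every set, at −0.76 for the small subunit and −0.42 for bright genes outside the family.

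Among large subunit genes, Rpl32 had tight controls and a wide gap within the mutants. Its log2 values, here and below in the order of replicates 1, 2 and 3, were 11.77, 11.77 and 11.80 in controls and 11.93, 10.37 and 10.54 in mutants. Mutant replicate 1 was the highest of the 6 arrays, and the other mutants were more than 1 log2 unit below every control. The difference was −0.83 ± 0.37 (SE, adjusted p = 0.594 in limma), −1.33 without mutant replicate 1 and −0.55 without mutant replicate 2. Rpl34 had the same form, at 6.54, 6.78 and 6.61 in controls and 6.63, 5.35 and 5.45 in mutants. The difference was −0.83 ± 0.31 (SE), with the groups overlapping through mutant replicate 1.

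Rpl8, whose protein lies at the centre where peptide bonds form, had a smaller and more even step. It was at 10.78, 11.03 and 11.14 in controls and 10.81, 10.02 and 10.28 in mutants. Mutant replicate 1 was within the control range, just above control replicate 1. The difference was −0.62 ± 0.21 (SE, adjusted p = 0.594), and −0.44 without mutant replicate 2.

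The stalk of the large subunit, which recruits the elongation factors, is formed by the anchor protein of Rplp0 and by the proteins of Rplp1 and Rplp2. Rplp0 was at 7.76, 8.39 and 8.30 in controls and 7.82, 7.73 and 7.40 in mutants. Its lowest control value lay between those of mutant replicates 1 and 2, so the groups overlapped through control replicate 1. The difference was −0.50 ± 0.20 (SE), and mutant replicate 3 was the lowest array, not mutant replicate 2. Rplp1 was at 12.47, 12.48 and 12.56 in controls and 12.54, 12.28 and 12.01 in mutants, again lowest on mutant replicate 3. Rplp2 was at 5.05, 4.89 and 5.17 in controls and 5.41, 4.80 and 5.03 in mutants. On the brightest probe sets the 3 stalk genes thus differed in form, with differences of −0.50, −0.23 and 0.04. The first depended on the probe set, and the last turned below 0 under each of the other scalings.

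Rpl5 and Rpl11 encode the proteins that join the ribosomal RNA called 5S and, when ribosome assembly stalls, bind Mdm2 and so stabilise p53. Rpl5 was at 6.21, 6.24 and 6.40 in controls and 6.28, 5.76 and 5.87 in mutants, a difference of −0.31 ± 0.16 (SE). Rpl11 was at 6.56, 6.29 and 6.51 in controls and 6.57, 6.48 and 6.41 in mutants. Mutant replicate 1 lay just above the control range of Rpl11 and the other mutants within it, and its difference of 0.03 ± 0.12 turned below 0 when the arrays were centred on their medians and with array weights. The 95% interval of that difference ran from −0.25 to 0.31. Rpl7a (−0.38 ± 0.20, SE) and Rpl15 (−0.42 ± 0.22), which are needed to build the large subunit, were the remaining members with the lowest p of that subunit. Rpl15 was at 11.33, 11.41 and 11.52 in controls and at 11.43, 10.48 and 11.09 in mutants.

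Rpl9, chosen after its values were seen, had the largest difference of all members and also the widest error. It was at 9.33, 9.40 and 9.64 in controls and 9.63, 7.21 and 8.98 in mutants, −0.85 ± 0.53 (SE). Its 95% interval ran from −2.07 to 0.37. Rpl13 was at 12.40, 12.30 and 12.33 in controls and 12.37, 11.78 and 12.50 in mutants, so that mutant replicates 2 and 3 lay on opposite sides of the controls.

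Among small subunit genes Rps4x, an X-linked gene, had the lowest p. It was at 10.83, 10.92 and 11.17 in controls and 10.84, 9.85 and 10.48 in mutants. Mutant replicate 1 lay just above the lowest control, and the other mutants were below all controls. The difference was −0.59 ± 0.24 (SE, adjusted p = 0.594 in limma), and −0.32 without mutant replicate 2.

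Rps3, whose protein lines the channel through which mRNA enters, was at 10.94, 11.08 and 11.08 in controls and 10.99, 9.92 and 10.80 in mutants. Rps19, the gene most often mutated in Diamond-Blackfan anaemia, was at 10.86, 10.96 and 11.02 in controls and 11.16, 10.22 and 10.28 in mutants. Rps19 thus had its highest value on mutant replicate 1 and nearly equal low values on the other mutants, while Rps3 was low mainly on mutant replicate 2. Their differences were −0.46 ± 0.26 and −0.39 ± 0.24 (SE). A dimmer probe set of Rps19 did not have this form, at 5.63, 5.89 and 5.83 in controls and 5.77, 5.78 and 5.73 in mutants. It differed by −0.02, and the mean of the gene's probe sets gave −0.27. Rps10, another Diamond-Blackfan gene, was at 7.88, 8.11 and 7.98 in controls and 8.09, 7.11 and 7.70 in mutants. Rps26, whose protein sits where mRNA leaves, was at 10.94, 10.91 and 11.08 in controls and 11.08, 10.01 and 10.86 in mutants. Rps28, Rps3a1 and Rps9 differed by −0.30 ± 0.21, −0.34 ± 0.25 and −0.26 ± 0.21 and had their lowest value on mutant replicate 2 as well.

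Rps6, the small subunit protein that S6 kinases phosphorylate downstream of mTOR, was at 12.02, 12.04 and 12.08 in controls and 12.06, 11.71 and 12.03 in mutants. Apart from mutant replicate 2 its values lay close together. The difference was −0.11 ± 0.13 (SE), 0.00 without mutant replicate 2 and above 0 after cyclic loess. Rpsa, which also encodes a laminin receptor, was at 9.62, 9.67 and 9.58 in controls and 9.76, 9.24 and 9.78 in mutants, −0.03 ± 0.16 (SE). Mutant replicates 1 and 3 were above all controls and mutant replicate 2 was below them, and the sign turned under quantile normalization, cyclic loess and array weights. A second bright probe set of Rpsa differed by −0.85, with 9.55, 9.94 and 9.97 in controls and 9.57, 8.88 and 8.46 in mutants, so that mutant replicate 3 was its lowest array. The mean of both probe sets gave −0.44 in place of −0.03. Rps18, at 12.47, 12.41 and 12.45 in controls and 12.48, 11.91 and 12.43 in mutants, was also low on mutant replicate 2 alone.

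The members with the largest differences above 0 included Rps7, whose protein can bind Mdm2. It was at 6.34, 6.54 and 6.52 in controls and 6.57, 6.37 and 6.82 in mutants, 0.12 ± 0.15 (SE). Its groups overlapped through mutant replicate 2. Rps23, chosen after its values were seen, was at 7.08, 7.13 and 7.25 in controls and 7.30, 7.68 and 6.34 in mutants, so that the mutant arrays held both its highest and its lowest value.

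**Figure D3:**
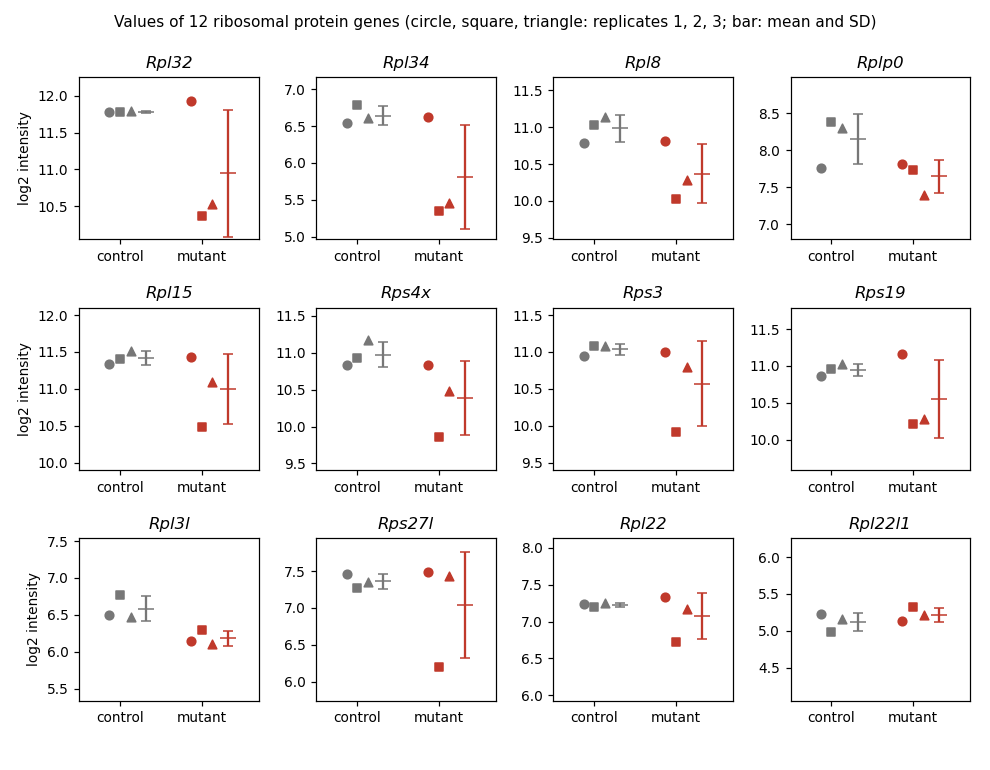
Log2 intensity (vertical axis, the same span in each panel) of 12 ribosomal protein genes in controls (grey) and mutants (red), with circles, squares and triangles for replicates 1, 2 and 3 and a bar for the mean and SD of 3 arrays. In the upper rows the red circle of mutant replicate 1 lies at the level of the controls, and in the panel of Rpl3l all mutant values lie below the controls.

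The paralogue genes, copies that differ from the parent protein and are often restricted to certain tissues, were divided. Of 7 tested paralogues 3 were lower and 4 higher in the mean of the mutants (median 0.03), and on mutant replicates 1, 2 and 3 they stood at 0.12, −0.09 and 0.03. Without the paralogues 48 of 52 members (92.3%) were lower (median −0.22). The difference between paralogues and other members was not tested. All but Rpl6l of these 7 lay outside the brightest 10% of genes, and the 22 tested members outside it had a median of −0.13, against −0.26 for the 37 inside.

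Rpl3l, best known from skeletal and heart muscle, was at 6.50, 6.78 and 6.48 in controls and 6.14, 6.30 and 6.10 in mutants. All mutant values lay below all controls, a difference of −0.40 ± 0.13 (SE, adjusted p = 0.594 in limma). The parent gene Rpl3 was at 10.24, 9.92 and 10.12 in controls and 10.14, 9.56 and 10.23 in mutants, and its groups overlapped. Rpl22 is required in mice for the development of T cells with the alpha-beta receptor, and Rpl22l1 is its paralogue. Rpl22 was at 7.23, 7.19 and 7.25 in controls and 7.33, 6.73 and 7.17 in mutants, −0.15 ± 0.16 (SE), and 0.03 without mutant replicate 2. Rpl22l1 was at 5.22, 4.99 and 5.17 in controls and 5.13, 5.32 and 5.21 in mutants, 0.09 ± 0.12 (SE). On mutant replicate 2 Rpl22 was thus at its lowest and Rpl22l1 at its highest, and neither difference exceeded its error.

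Rps27l, a target of p53, was at 7.46, 7.27 and 7.35 in controls and 7.48, 6.21 and 7.43 in mutants. It was low on mutant replicate 2 alone, and its difference of −0.32 ± 0.32 (SE) turned to 0.10 without that array. The parent gene Rps27 was at 5.78, 5.94 and 6.11 in controls and 6.38, 5.68 and 5.48 in mutants, so the arrays took another order in the parent. Rpl7l1 (0.15 ± 0.16, SE) and Rpl39l (0.05 ± 0.14), a gene known from testis, leaned higher, the latter with a sign that turned when the arrays were centred. Rpl6l, which RefSeq types as a pseudogene, was at 9.97, 9.95 and 9.96 in controls and 10.09, 9.99 and 9.87 in mutants. Rps4l, typed as a transcribed pseudogene, was at 4.91, 5.79 and 5.41 in controls and 5.60, 4.46 and 5.40 in mutants.

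The 8 untested members were at or below the limit of 4.84 for the mean over all arrays. Rps14, whose loss is known from a subtype of myelodysplastic syndrome, was at 4.70, 4.87 and 4.94 in controls and 4.81, 4.56 and 4.34 in mutants. Rps15 was at 4.23, 3.88 and 4.03 in controls and 4.67, 3.93 and 3.59 in mutants. Rpl10l and Rpl32l were the dimmest members, with means of 3.00 and 3.11. No detection call was used here, so such values cannot be separated from background. Members with a dim probe set, such as Rps14, stand beside bright ones because a probe set's level also depends on its probes, and levels were not compared between genes.

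Most probe sets of the members leaned lower, so a shared sign within a gene says little about the consistency of that gene. The members had 108 probe sets of their own, of which 96 were above the limit, and 82 of these were lower in mutants (median −0.17). Of these, 7 held the same values on all arrays as another probe set of Rps12, Rpl23a or Rps19, so their direction was no separate measurement. With such copies counted once, 75 of 89 were lower (median −0.18). Of 21 members with more than 1 distinct probe set above the limit, 6 had probe sets of opposite sign, namely Rpl3, Rpl4, Rpl41, Rps18, Rps24 and Rps28. For Rps18 the mean of its probe sets gave 0.07 in place of −0.17. Probe sets that list a member among several genes numbered 54 above the limit, and 51 of them were lower in mutants (median −0.22).

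The differences were also set against the pyrimidine start. The 10 tested members with such a start had a median difference of −0.16, from −0.42 to 0.04, with 9 lower. The 37 tested members with a promoter sequence and no such start had a median of −0.26, from −0.85 to 0.15, with 31 lower. The order turned between arrays. On mutant replicate 2 members with such a start stood at −0.42 and those without at −0.52, and on mutant replicate 3 at −0.19 and −0.15. Of the genes shown above with such a start, Rpl15, Rps10 and Rps27 were below every control on both mutant replicates 2 and 3, and Rps6, Rps18 and Rplp2 on mutant replicate 2 alone. Of those shown without it, Rps27l was below on mutant replicate 2 alone, and Rpl34, Rps19 and Rps4x, chosen for being low, on both. The starts are those annotated, and the difference between these groups was not tested.

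Scaling changed the size of the lean. With quantile normalization repeated, the members' median was −0.16 and that of the other bright genes −0.07. After cyclic loess, which removes trends with brightness between arrays, it was −0.10 with 39 of 59 lower (66.1%), against −0.03 for the other bright genes and 52.1% of all tested genes lower. With arrays centred on their medians it was −0.27, and the median of all tested genes moved to −0.11. The members' scores on mutant replicates 1, 2 and 3 were 0.06, −0.21 and −0.06 after cyclic loess, in the same order as in the deposited values.

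**Figure D4:**
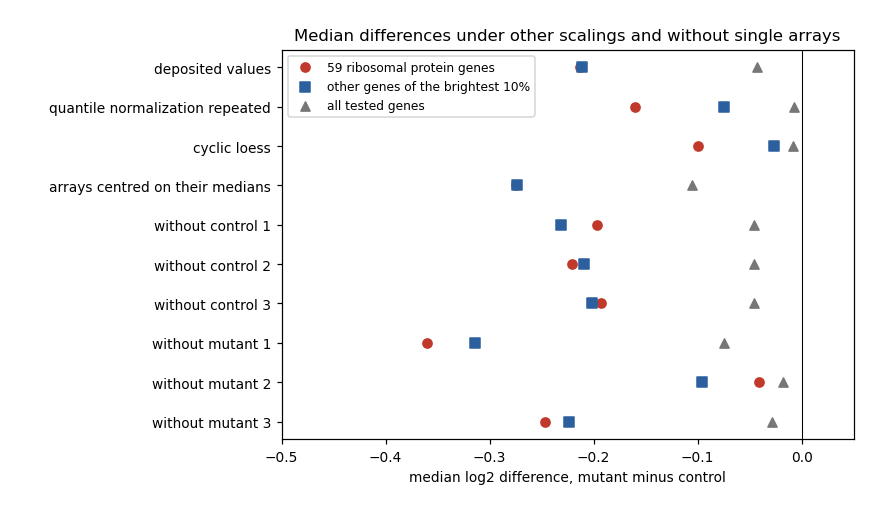
Median log2 difference, mutant minus control (horizontal axis), of the 59 tested ribosomal protein genes (red circles), of the other genes of the brightest 10% (blue squares) and of all tested genes (grey triangles), under 4 scalings and without each array in turn (rows). Red and blue lie together at −0.21 in the deposited values, and the red circle moves to −0.04 without mutant replicate 2 and to −0.36 without mutant replicate 1.

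Other genes of the translation machinery were set beside the family. Of 17 tested genes with known TOP mRNAs outside the rule, 17 had a lower mutant mean (median −0.18), 5 of them (29.4%) without overlap, and 0 passed. Over all tested genes 57.5% were lower and 9.99% were lower without overlap, and over the other bright genes 85.8% and 17.2%. The elongation factor gene Eef1d was at 8.66, 8.74 and 8.94 in controls and 8.48, 7.77 and 7.80 in mutants, all mutants below all controls. The nascent chain factor gene Btf3 (−0.47 ± 0.27, SE) and the initiation factor gene Eif3h (−0.44 ± 0.25) were low mainly on mutant replicate 2.

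Ribosome biogenesis genes, which make and process ribosomal RNA, were divided: 18 of 30 (60%) were lower, with a median of −0.05, close to all tested genes. Taf1d, a factor of RNA polymerase I, was at 11.72, 11.77 and 11.87 in controls and 11.50, 10.43 and 11.12 in mutants. Polr1c, a subunit of that polymerase, differed by −0.41 ± 0.20 (SE), and Mybbp1a by 0.24 ± 0.14. On mutant replicates 1, 2 and 3 these genes stood at 0.16, −0.23 and −0.02.

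Mitochondrial ribosomal protein genes had 59 of 70 (84.3%) lower, with a median of −0.18, and stood at 0.12, −0.60 and −0.11 on mutant replicates 1, 2 and 3. Of these, 14 (20.0%) did not overlap with the controls and were lower, among them Mrpl27 (−0.60 ± 0.13, SE), Mrpl21 (−0.53 ± 0.14) and Mrps7 (−0.39 ± 0.12), and 0 passed. Lower without overlap were also 9.99% of all tested genes and 17.2% of the other bright genes, and 57.5% and 85.8% had a lower mutant mean. Among 13 genes that control TOP mRNAs 8 were lower (median −0.08). Mtor was at 7.69, 7.80 and 7.68 in controls and 7.43, 7.60 and 7.32 in mutants, without overlap, at −0.27 ± 0.12 (SE). Rheb, the activator of mTOR, differed by −0.60 ± 0.31, and Larp1 by 0.19 ± 0.14.

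The sort and the other cell types were checked by marker genes. Among the sort and progenitor genes, Il7r and Dntt were bright. Il7r had means of 10.11 ± 0.27 for controls and 9.76 ± 0.04 for mutants (SD over 3 arrays each). For Dntt these were 10.98 ± 0.06 and 10.78 ± 0.16. Averaged over all arrays, Kit stood at 7.14, Thy1 at 6.88 and Flt3 at 6.85. Ly6d, by whose absence the cells were sorted, stood at 7.57. Because a level also depends on the probes, these values cannot decide how pure the sort was. A lower mutant mean was found for 6 of 6 genes, Ly6d included. Their linear intensities summed to 3488 to 4048 for controls and 2922 to 3273 for mutants, without overlap. The labels give the tissue as stromal cells of the bone marrow: of 4 stromal markers Lepr was below the limit, and their summed linear intensity was 171 to 179 in controls and 158 to 197 in mutants. Neutrophil markers summed to 10779 to 18049 in controls and 9832 to 19673 in mutants, with 6 of 9 higher, and monocyte and dendritic markers to 3511 to 4055 and 2360 to 4686, with 4 of 6 lower. For neutrophil, monocyte and dendritic markers the highest sum was on mutant replicate 1 and the lowest on mutant replicate 2. The ribosomal protein genes were highest and lowest on the same arrays. On control replicates 1 and 2 the sums were 18049 and 10779 for neutrophil markers and 4055 and 3511 for monocyte and dendritic markers. The members' medians on these control arrays were −0.03 and −0.01. Early B markers summed to 5774 to 8141 in controls and 5130 to 6341 in mutants, with 6 of 7 lower. Natural killer markers summed to 464 to 904 and 413 to 781, T markers to 218 to 350 and 239 to 250, and erythroid and megakaryocyte markers to 369 to 789 and 472 to 869. Stem markers summed to 130 to 135 in controls and 131 to 145 in mutants. Immediate early genes, which cells switch on within minutes of a stimulus, had a higher mutant mean in 10 of 10 (median 0.44), and 0 passed. All 10 lay above every control on mutant replicate 1, where 28.6% of all tested genes did and where the ribosomal protein genes were highest. Their sums were 839 to 1943 in controls and 1259 to 2775 in mutants, so the groups overlapped, and Egr3 alone did not overlap gene by gene. The part of cell composition, or of what moved the immediate early genes, in the ribosomal protein values was not tested.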

How the data were processed

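RNA of sorted Ly6D- CLPs was measured on 6 Affymetrix arrays after NuGEN Ovation amplification, per the labels' protocols. The authors deposited RMA values, that is log2 intensities per probe set, per the submitters' processing notes, which give no version or build. RMA evens out the arrays' distributions, but the deposited columns do not have identical quantiles. Platform annotation named 23521 of 41345 probe sets with 1 symbol. A gene was represented by whichever of its probe sets was brightest on average, and the lowest 40% of the 22180 genes (mean under 4.84) were not tested, leaving 13308. The groups were compared with limma 3.58.1 in R 4.3.3 (lmFit, eBayes, 2-sided, Benjamini-Hochberg over all tested genes, threshold 0.05), and the test was checked on simulated data. SE and 95% intervals are limma's. No set test was run. Promoter sequences are RefSeq's, and figures were drawn with matplotlib 3.10.9.

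The members and lists were chosen with earlier results of these data known. Named members were, per subunit, the 8 with the lowest p, up to 5 with the largest difference above 0, the 3 brightest and 3 dimmest, the paralogues, and Rplp0, Rplp1, Rplp2, Rpsa, Rpl5, Rpl11, Rpl22, Rps6, Rps19 and Rps14; parent genes of paralogues were added, and 3 genes per other list were named, mostly those with the lowest p. Alternatives changed the filter, probe set rule, variance prior, array weights, scaling, replicate block and threshold, or left out arrays or paralogues. The version without RefSeq-typed pseudogenes was added after seeing the data.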

Additional observations from a re-analysis of the deposited data

How the results depend on the processing

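The median difference of the members stayed below 0 under every alternative run, from −0.36 (mutant replicate 1 left out) to −0.04 (mutant replicate 2 left out); on leaving out 1 array it ran from −0.34 to −0.05 for the large and from −0.44 to −0.01 for the small subunit. The 3 arrays per group limit the precision, and dim values cannot be told from background.

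Counts changed where the sets did. Members with a lower mutant mean numbered 82 of 96 with every probe set alone and 102 of 113 with shared probe sets added, and 49 to 54 of 59 without 1 of the other arrays but 39 without mutant replicate 2. Members without overlap, of which there was 1, numbered 2 with no filter, with every probe set alone, with quantile normalization repeated and with centred arrays, 4 after cyclic loess, 8 with shared probe sets added, 0 without paralogues, and 1 to 36 on leaving out 1 array. Array weights called 17 of 59 members and 2960 of 13308 tested genes. Leaving out 1 array called 0 to 1 members and 0 to 4 genes, and 0 genes passed in the other fits, the unmoderated test included. The cause of these changes was not tested.

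Signs turned for 11 of the members named by rule, among them Rps27l (−0.32 ± 0.32, SE), Rps4l (−0.21 ± 0.32) and Rps18 (−0.17 ± 0.17), whose 95% intervals included 0. They also turned for members named in addition. Without mutant replicate 3 the difference moved from −0.05 to 0.34 for Rps23 and from −0.09 to 0.09 for Rps27. Without mutant replicate 2 it moved from −0.11 to 0.10 for Rpl3. With array weights the differences were −0.08 for Rpl39l, 0.13 for Rpl13, 0.13 for Rpsa, −0.02 for Rpl11, −0.06 for Rpl6l and 0.05 for Rps27l. With quantile normalization repeated they were −0.03 for Rplp2 and 0.09 for Rpsa. After cyclic loess they were −0.04 for Rplp2, 0.02 for Rps18, 0.06 for Rpl13, 0.16 for Rpsa and 0.07 for Rps6. With centred arrays they were −0.02 for Rpl39l, −0.02 for Rplp2, −0.03 for Rpl11 and −0.03 for Rpl6l, and with the mean of all probe sets 0.07 for Rps18, while Rpsa moved from −0.03 to −0.44. On leaving out 1 array the differences ran from −0.08 to 0.12 for Rpl39l, −0.12 to 0.18 for Rplp2, −0.27 to 0.01 for Rps18, −0.27 to 0.09 for Rpl13, −0.13 to 0.14 for Rpsa, −0.05 to 0.08 for Rpl11, −0.27 to 0.03 for Rpl22, −0.18 to 0.00 for Rps6, −0.03 to 0.08 for Rpl6l, −0.54 to 0.10 for Rps27l and −0.44 to 0.13 for Rps4l.

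Deviations of same-numbered arrays correlated at 0.132, 0.203 and −0.133, and those of arrays with unlike numbers at −0.227 to 0.198. With 3 arrays per group these values cannot decide whether the replicate numbers mark a pairing or a shared batch. With the replicate number as a block 0 members and 0 genes passed, and the median of the members was −0.21.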
